A study of Mus musculus with 9 samples.

Results

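Cytochrome P450 genes of families 1 to 4 were examined in copper-exposed mouse hepatocytes that had been through a progenitor stage in culture. The 74 members were all symbols of the deposited gene table made of Cyp, a family number from 1 to 4, one subfamily letter and a gene number, out of 21878 symbols. They stand for 21 subfamilies, and all 74 are protein-coding in the annotation. The values come from 2 libraries of wild-type cells of the C57BL/6 strain that carried a GFP lentivirus (WT-GFP), replicates 1 and 2. Hepatocytes had been converted to liver progenitors with growth factors and small molecules, transduced, kept for 3 weeks in a maturation medium with oncostatin M, DAPT and SB431542, and given copper chloride for 24 hours. The copper dose was 100 µM per the protocols, whereas the treatment field gives the same figure in mM, and the growth protocol names ATP7B where titles and design name GFP for the wild-type cells.

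The series also holds KO-ATP7B and KO-GFP cells, which are ATP7B-/- cells with an ATP7B or a GFP lentivirus, with 3 samples in each of the 3 groups and copper in all of them. The count table has 9 numbered columns without group names. Only 2 of them carry the number of a file that belongs to a named sample, and the other 7 were not used here, because reading them in label order would have been a guess. Genotypes and vectors were therefore not compared, and no cells without copper were analysed here. Nothing in the labels tells if the replicates were grown from different mice or dishes, or gives the sex of the mice, so differences between the libraries may be technical.

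P450 enzymes are heme-containing monooxygenases, most of which sit in the membrane of the endoplasmic reticulum and receive electrons from P450 oxidoreductase. In the liver, families 1 to 3 are known for the oxidation of drugs, other foreign compounds and steroids, and family 4 for the hydroxylation of fatty acids at the end of their chain. Many of the genes are switched on late in hepatocyte development, respond to the nuclear receptors PXR, CAR and PPARA or to the aryl hydrocarbon receptor, and lose expression when hepatocytes are cultured.

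Some copies in the same cluster with related sequence before the start of transcription stood at very different levels. To show how alike they are, 4 such pairs are printed, picked after their levels were seen. Over all pairs of the same subfamily among the 57 members with a single RefSeq start there were 13 with at least 80% of these bases identical, a limit also set afterwards. In 6 of the 13 both genes were below 1 FPKM, as with Cyp2b9 and Cyp2b13, and in 7 the higher gene was at 1 FPKM or more and the lower one below 1 FPKM. These pairs are not independent, since Cyp2c68 and Cyp2d10 are each the higher gene in more than 1 of the 7. Each sequence is the 250 bases before the RefSeq start (GRCm38.p6), read 5′ to 3′ on the gene's strand. Capitals mark bases that differ from, or have no partner in, the other gene of the pair after global alignment.

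Cyp3a11 and Cyp3a16, of the cluster on chromosome 5, share 199 of the 250 bases (79.6%). They lie at chr5:145879855-145880104 and chr5:145469724-145469973, both on the minus strand.
Cyp3a11: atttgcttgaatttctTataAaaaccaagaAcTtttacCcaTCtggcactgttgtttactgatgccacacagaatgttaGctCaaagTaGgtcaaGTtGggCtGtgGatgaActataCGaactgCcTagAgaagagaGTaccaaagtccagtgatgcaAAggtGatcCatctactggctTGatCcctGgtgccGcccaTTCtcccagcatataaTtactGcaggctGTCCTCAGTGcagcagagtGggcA
Cyp3a16: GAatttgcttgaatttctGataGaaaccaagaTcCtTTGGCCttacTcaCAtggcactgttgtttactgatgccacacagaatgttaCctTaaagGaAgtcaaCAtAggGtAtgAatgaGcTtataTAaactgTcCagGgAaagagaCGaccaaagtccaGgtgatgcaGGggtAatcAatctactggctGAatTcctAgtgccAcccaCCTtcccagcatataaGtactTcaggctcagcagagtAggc

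Cyp2c29 and Cyp2c38, of the cluster on chromosome 19, share 187 bases (74.8%), fewer than the other pairs printed. They lie at chr19:39286835-39287084 on the plus strand and chr19:39463076-39463325 on the minus strand. The RefSeq start of Cyp2c29 lies inside the longer gene span that GENCODE gives, and so do those of Cyp3a11, Cyp2a5 and Cyp2a4. The printed windows of these genes therefore hold bases that GENCODE places inside the gene.
Cyp2c29: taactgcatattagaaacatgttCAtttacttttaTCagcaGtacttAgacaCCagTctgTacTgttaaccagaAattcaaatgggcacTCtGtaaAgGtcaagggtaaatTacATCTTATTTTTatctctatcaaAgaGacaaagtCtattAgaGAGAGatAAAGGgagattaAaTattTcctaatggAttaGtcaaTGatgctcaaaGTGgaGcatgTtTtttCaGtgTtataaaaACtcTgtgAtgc
Cyp2c38: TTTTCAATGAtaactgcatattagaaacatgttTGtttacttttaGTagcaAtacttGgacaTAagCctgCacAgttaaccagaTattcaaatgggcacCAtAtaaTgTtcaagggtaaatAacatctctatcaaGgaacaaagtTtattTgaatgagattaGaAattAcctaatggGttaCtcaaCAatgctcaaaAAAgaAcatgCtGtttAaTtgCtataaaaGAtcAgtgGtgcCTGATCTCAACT

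Cyp2c65 and Cyp2c66 share 208 bases. They lie at chr19:39060756-39061005 and chr19:39113648-39113897, both on the plus strand.
Cyp2c65: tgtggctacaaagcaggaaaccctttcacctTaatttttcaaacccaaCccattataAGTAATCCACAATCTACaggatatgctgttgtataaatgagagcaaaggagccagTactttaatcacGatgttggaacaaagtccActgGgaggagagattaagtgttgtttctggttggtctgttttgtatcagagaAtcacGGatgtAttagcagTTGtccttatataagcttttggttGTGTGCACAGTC
Cyp2c66: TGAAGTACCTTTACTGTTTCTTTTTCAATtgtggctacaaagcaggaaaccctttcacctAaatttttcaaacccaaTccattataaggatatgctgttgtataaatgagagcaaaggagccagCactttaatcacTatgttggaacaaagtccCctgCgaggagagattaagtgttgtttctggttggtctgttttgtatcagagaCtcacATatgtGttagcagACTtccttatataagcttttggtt

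Cyp2a5 and Cyp2a4, on chromosome 7, share 245 bases. They lie at chr7:26835089-26835338 and chr7:26306942-26307191, both on the plus strand.
Cyp2a5: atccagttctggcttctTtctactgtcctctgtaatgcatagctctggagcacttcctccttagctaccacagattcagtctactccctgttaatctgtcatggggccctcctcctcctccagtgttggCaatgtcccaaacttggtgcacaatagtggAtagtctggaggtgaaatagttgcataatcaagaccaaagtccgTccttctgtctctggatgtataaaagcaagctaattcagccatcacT
Cyp2a4: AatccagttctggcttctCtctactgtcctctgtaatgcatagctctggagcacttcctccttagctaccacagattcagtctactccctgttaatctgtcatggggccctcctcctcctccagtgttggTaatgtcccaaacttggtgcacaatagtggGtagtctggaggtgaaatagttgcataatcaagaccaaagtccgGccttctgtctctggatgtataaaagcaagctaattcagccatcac

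The first gene of each pair was the higher one. Cyp3a11 was at 85.9 ± 17.7 FPKM (fragments scaled to gene length and library total, mean ± SD of n = 2 libraries), whereas Cyp3a16 had 0 counts in replicate 1 and 1 count in replicate 2. Cyp2c29 was at 49.5 ± 8.55 FPKM, whereas Cyp2c38 had 4 and 3 counts. Cyp2c65 was at 10.3 ± 0.286 FPKM, whereas Cyp2c66 had no count in either library. A count of 0 allows up to 3 counts, taken as the one-sided limit, or 0.162 CPM (counts scaled to the library total) in replicate 1 and 0.168 CPM in replicate 2. The two-sided 95% exact interval for Cyp2c66 reaches 0.199 CPM and 0.207 CPM. Cyp2a5 was at 9.28 ± 1.47 FPKM and Cyp2a4 at 0.702 ± 0.253 FPKM, although 245 of their 250 bases before the start are the same. Reads of Cyp2a5 and Cyp2a4 cannot always be told apart, since 37.0% and 38.0% of the 50-base stretches of their GENCODE transcripts also occur in other genes. The higher genes of the other pairs split at 1 FPKM share stretches too, namely Cyp2c68 (43.3%), Cyp2d10 (35.8%), Cyp2c65 (20.65%) and Cyp2a12 (20.1%). So does Cyp2c40 (60.3%). Of the stretches of Cyp2c65 20.2% occur in Cyp2c66, and 19.5% the other way, which the limits given for Cyp2c66 do not cover. How shared reads were counted is not known from the labels.

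Short motifs were looked up in the same 250-base windows on both strands. All 8 printed windows hold TATAAA, which is found in the windows of 24 of the 57 members with a single RefSeq start and in 12.4% of all 32851 RefSeq promoters. In the Cyp3a11 pair the TATAAA matches lie at different places of the alignment and include bases that differ between the genes. In the other pairs both genes hold TATAAA at the same aligned place. CAAAGTCC, which resembles the element bound by the hepatocyte factor HNF4A, was searched for after it had been seen in the printed sequences. It occurs in 12 of the 57 members and in 1.2% of all promoters. Members with related windows, such as Cyp2a5 and Cyp2a4 (98% identical) or Cyp2c68 and Cyp2c69 (92.8%), count separately here and for TATAAA. The counts are therefore not of independent promoters. CAAAGTCC is present in both genes of the Cyp3a11, Cyp2c65 and Cyp2a5 pairs and in neither gene of the Cyp2c29 pair. Among members at 10 FPKM or more 2 of 8 hold it, from 1 to under 10 FPKM 3 of 11, and below 1 FPKM 7 of 38. A match is a stretch of letters and not a shown binding site.

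Most P450 genes were low or without counts, and a few carried most of the reads. Of the 74 members, 8 (10.8%) had a mean of 10 FPKM or more, against 27.1% of all symbols. Below 1 FPKM were 51 members (68.9%), against 51.2% of all symbols, and 15 (20.3%) had no count in either library, against 28.9% of all symbols. The 15 were Cyp2b19, Cyp2b23, Cyp2c66, Cyp2d12, Cyp2d34, Cyp2j8, Cyp2j11, Cyp2j12, Cyp2j13, Cyp2t4, Cyp2w1, Cyp4a29, Cyp4f18, Cyp4f37 and Cyp4x1. The median was 0.266 FPKM for the members and 0.782 FPKM for all symbols. In bulk RNA, fewer cells with a transcript and less of it per cell cannot be told apart.

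The members together held 20798 counts in replicate 1, which is 0.112% of that library (95% Wilson interval 0.111 to 0.114%), and 18066 counts or 0.101% in replicate 2 (0.0999 to 0.103%). The share was thus lower in replicate 2 by more than counting error. The 8 members at 10 FPKM or more held 83.8% of the counts of the family and Cyp3a13, Cyp3a11 and Cyp4b1 alone 60.1%. The libraries held 18532457 and 17821682 counts in all. Each interval or floor given here covers only the error of counting, because PCR copies cannot be told from separate molecules in these counts.

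**Figure D1:**
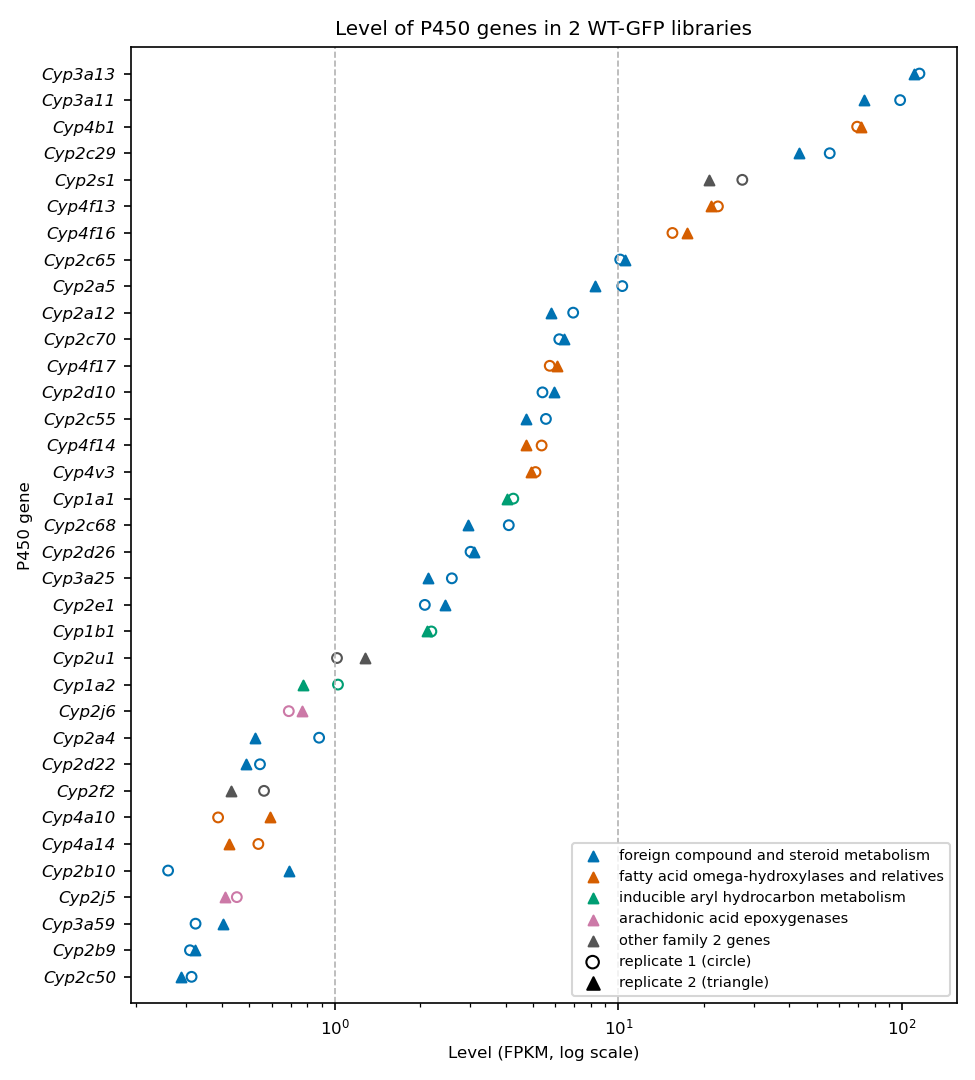
Level of the 35 P450 genes that averaged at least 10 counts, in FPKM on a log axis, with 1 circle for replicate 1 and 1 triangle for replicate 2 of WT-GFP and colours for the role of the subfamily. Dashed lines stand at 1 and 10 FPKM, and the levels run from Cyp2c50, below 1 FPKM, up to Cyp3a13 at 113 FPKM.

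Genes of the subfamilies known for foreign compounds and steroids held the 2 highest places. Of these 40 genes (Cyp2a, Cyp2b, Cyp2c, Cyp2d, Cyp2e and Cyp3a) 4 reached 10 FPKM, 9 lay between 1 and 10 FPKM and 27 were below 1 FPKM. Cyp3a13 (ENSMUSG00000029727.7, chr5:137892932-137921619, minus strand), a CYP3A enzyme of liver and intestine, was at 115 FPKM in replicate 1 and 110.2 FPKM in replicate 2. Cyp3a11 (ENSMUSG00000056035.8, chr5:145854426-145879964, minus strand), the major CYP3A drug-metabolising enzyme of adult mouse liver and a target of PXR, was at 98.4 and 73.4 FPKM. The libraries lie close for Cyp3a13 and apart for Cyp3a11, and the 2 genes do not overlap. Cyp3a13 lies outside the main Cyp3a cluster and shares no 50-base stretch with another gene, unlike the copies described above. Cyp3a25, the next of the subfamily, was at 2.59 and 2.13 FPKM, and Cyp3a16, Cyp3a44, Cyp3a57 and Cyp3a59 were below 1 FPKM.

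The length given to a gene changes these levels. The lengths behind the deposited FPKM could be worked back to whole bases, and that of Cyp3a11 is 2053 bases, against 5093 exonic bases in GENCODE M21 once all isoforms are merged. With the GENCODE length Cyp3a11 came to 34.6 FPKM, below Cyp4b1 at 58.6 FPKM, while Cyp3a13 stayed first at 113 FPKM. Cyp2c29 came to 29.6 FPKM, Cyp2s1 to 12.8 FPKM, Cyp4f13 to 9.55 FPKM and Cyp2a12 to 3.07 FPKM in the same way.

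Cyp2c29 (ENSMUSG00000003053.17, chr19:39269405-39330713, plus strand), an inducible enzyme of the cells around the central vein, led the Cyp2c genes at 55.6 and 43.5 FPKM. It made up 64.8% of the summed FPKM of the 15 Cyp2c genes. Cyp2c65 (ENSMUSG00000067231.4, chr19:39061015-39093944, plus strand), better known from the intestine, followed at 10.1 and 10.6 FPKM. Cyp2c70, which makes the muricholic acids of rodent bile, was at 6.19 and 6.44 FPKM, and Cyp2c55 and Cyp2c68 at 5.13 ± 0.591 and 3.53 ± 0.818 FPKM. The other 10 Cyp2c genes were below 1 FPKM, and among them were Cyp2c37, Cyp2c50 and Cyp2c54, which are abundant in adult liver, with 10 and 9, 17 and 15, and 7 and 7 counts. Cyp2c67, of the same list, had 5 and 1 counts. Cyp2c68 shares 43.3% of its 50-base stretches with other genes and its level is uncertain. The same limit holds for low genes, with 52.8% for Cyp2c67, 30.1% for Cyp2c37, 25.7% for Cyp2c54, 60.3% for Cyp2c40 and 54.3% for Cyp2c69.

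Cyp2a5, the coumarin hydroxylase, led the Cyp2a genes at 10.3 and 8.24 FPKM and stood just below the limit of 10 FPKM that Cyp2c65 just passed. Cyp2a12, which hydroxylates bile acids in mouse liver, was at 6.93 and 5.79 FPKM. In the Cyp2d group Cyp2d10 was highest at 5.40 and 5.92 FPKM, followed by Cyp2d26 at 3.06 ± 0.0648 FPKM. Cyp2d9, known as a male-specific steroid hydroxylase of mouse liver, had 11 and 5 counts. Cyp2e1, the ethanol- and acetaminophen-oxidising enzyme that is among the most abundant P450s of adult liver, was at 2.08 and 2.45 FPKM, from 67 and 76 counts. All 5 Cyp2b genes were below 1 FPKM, and the highest was Cyp2b10, the classical target of CAR, with 9 and 23 counts.

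Family 4 held the third highest gene. Of its 17 genes 3 reached 10 FPKM, 3 lay between 1 and 10 FPKM and 11 were below 1 FPKM. Cyp4b1 (ENSMUSG00000028713.17, chr4:115624725-115647723, minus strand), known mainly from lung and kidney and for turning some protoxins into reactive products, was at 69.4 and 71.9 FPKM. The libraries lie close, and Cyp4b1 lies below Cyp3a11 and above Cyp2c29 in both of them. The Cyp4a genes beside it on chromosome 4 were low. Cyp4a10 and Cyp4a14, fatty acid hydroxylases that are targets of PPARA, were at 0.490 ± 0.144 and 0.481 ± 0.0807 FPKM, and Cyp4x1 and Cyp4a29 had no count. Cyp4a12a, a male-specific fatty acid hydroxylase of liver and kidney that is not a member because its symbol ends in a letter, was at 47.8 and 42.6 FPKM and is named after its value was seen.

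The Cyp4f genes, whose products hydroxylate leukotrienes and other long lipids, ran from no count up to 21.8 FPKM. Cyp4f13 (ENSMUSG00000024055.15, chr17:32924688-32947402, minus strand) was at 22.4 and 21.2 FPKM. Cyp4f16 (ENSMUSG00000048440.16, chr17:32536558-32551798, plus strand) was at 15.5 and 17.4 FPKM. Both lie in the same cluster on chromosome 17 as Cyp4f17 (5.91 ± 0.251 FPKM) and Cyp4f14 (5.04 ± 0.457 FPKM), while Cyp4f15, Cyp4f39 and Cyp4f40 in that cluster had 1 to 3 counts over both libraries and Cyp4f37 had none. Cyp4f16 shares 16.3% of its 50-base stretches with Cyp4f37. Cyp4v3, the mouse counterpart of a human gene of retinal lipid metabolism, was at 5.00 ± 0.141 FPKM.

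Family 1, the targets of the aryl hydrocarbon receptor, was expressed at a low level. Cyp1a1 was at 4.26 and 4.04 FPKM and Cyp1b1, mainly known outside the liver, at 2.19 and 2.12 FPKM. Cyp1a2, which is constitutive in adult hepatocytes and oxidises caffeine, was at 1.03 and 0.771 FPKM, just below 1 FPKM on average, where Cyp2u1 at 1.15 ± 0.182 FPKM was just above (0.510 FPKM with the GENCODE length). Cyp1a1 was thus above its neighbour Cyp1a2 in both libraries. The 7 Cyp2j genes, which make epoxides of arachidonic acid, were below 1 FPKM, with Cyp2j6 highest at 0.728 ± 0.0559 FPKM (1.76 FPKM with the GENCODE length). Cyp2j5, abundant in kidney and liver, had 31 and 27 counts. In the rest of family 2, Cyp2s1 (ENSMUSG00000040703.11, chr7:25802475-25816913, minus strand), a mainly extrahepatic enzyme, was at 27.3 and 20.8 FPKM. On the opposite strand Gm26707 covers 5.27% of its exonic bases, and the strand setting of the counting is not known. Cyp2g1 had 1 count in each library, and Cyp2t4 and Cyp2w1 had none. Cyp2f2, the naphthalene-oxidising enzyme of lung club cells and periportal hepatocytes, was at 0.497 ± 0.0931 FPKM, and Cyp2r1, which starts the activation of vitamin D, had 4 and 0 counts.

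Ranked by mean FPKM, the values of neighbours did not overlap between Cyp3a13, Cyp3a11, Cyp4b1, Cyp2c29 and Cyp2s1. For Cyp3a11 and Cyp4b1 they came close, with the lowest value of Cyp3a11 at 73.4 FPKM and the highest of Cyp4b1 at 71.9 FPKM, and their order turned with the GENCODE lengths given above. Those of Cyp2s1 and Cyp4f13 overlapped, as did those of Cyp2c65 and Cyp2a5. With 2 libraries such an order is a description and was not tested.

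**Figure D2:**
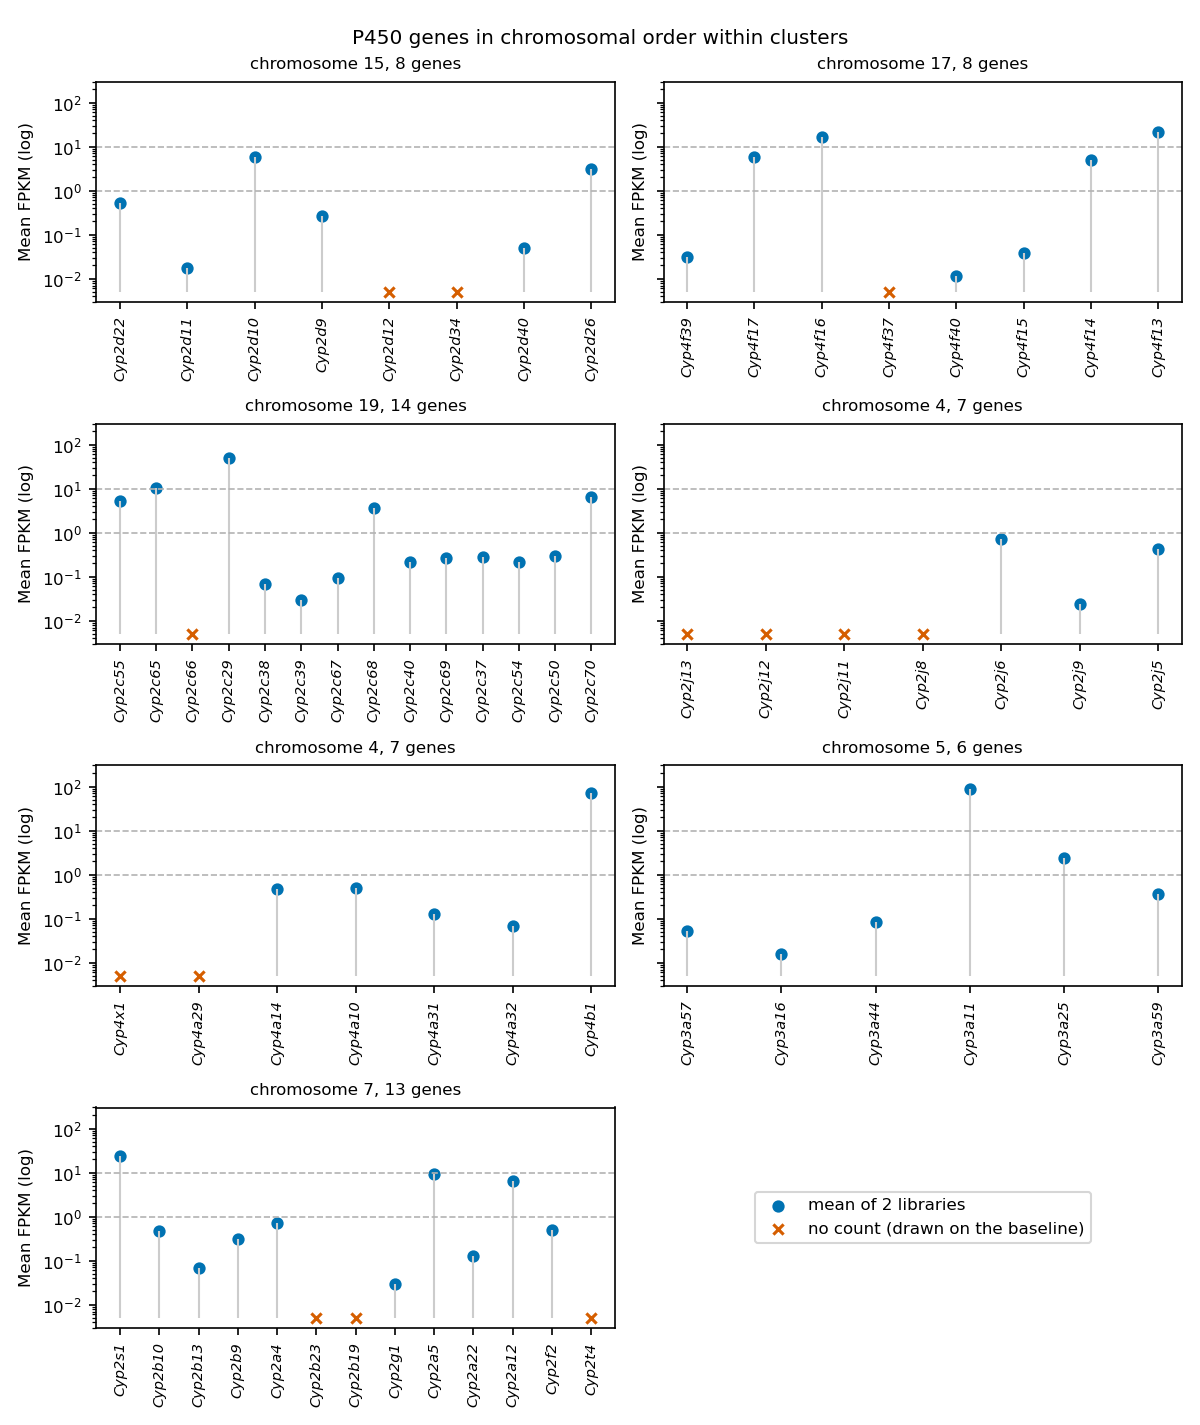
Mean FPKM of the 2 WT-GFP libraries (log axis) for P450 genes in their order along the chromosome, in the 7 clusters with at least 6 genes, where genes under 1 Mb apart form a cluster. Crosses on the baseline are genes with no count, and genes above and below 1 FPKM stand in the same cluster, except among the 7 Cyp2j genes of chromosome 4, which are all below 1 FPKM.

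Levels differed widely within most clusters. In the cluster of 14 Cyp2c genes on chromosome 19, which spans 1180 kb, 2 genes stood at 10 FPKM or more and 9 under 1 FPKM. The 6 Cyp3a genes over 768 kb of chromosome 5 held 1 gene at 10 FPKM or more and 4 below 1 FPKM. Of the 13 genes on chromosome 7 from Cyp2s1 to Cyp2t4, 1 reached 10 FPKM and 10 were below 1 FPKM. None of the 8 Cyp2d genes on chromosome 15 reached 10 FPKM. Across the family, 21 members had more than 20% of their 50-base stretches in other genes, and Cyp2c65 was the 1 gene at 10 FPKM or more among them.

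Sets of P450 genes known from adult mouse liver spanned low and high levels. Of 23 genes listed as abundant in adult liver, Cyp3a13, Cyp3a11 and Cyp2c29 reached 10 FPKM, against 27.1% of all symbols, and 11 were below 1 FPKM, against 51.2% of all symbols. Their median was 2.26 FPKM, against 0.782 FPKM for all symbols. Of 12 genes listed as mainly known outside the liver, Cyp4b1, Cyp2s1 and Cyp2c65 reached 10 FPKM and 7 were below 1 FPKM, with a median of 0.0306 FPKM. Of 7 genes known from the cells around the central vein, Cyp3a11 and Cyp2c29 passed 10 FPKM, whereas Cyp2c37, Cyp2c50 and Cyp1a2 lay under 1 FPKM. All 6 genes known to be higher in female mouse liver, among them Cyp2b9, Cyp2b13, Cyp3a44 and Cyp2c69, were below 1 FPKM. No adult liver was measured in this series, so these counts compare the genes with textbook knowledge and not with a control.

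Genes for partners of the P450 enzymes were expressed at higher levels than most of the P450 genes. Each of the 7 electron transfer genes was at 10 FPKM or more, and their median was 116 FPKM, against 0.266 FPKM for the members. Por, the oxidoreductase that feeds the microsomal P450s, was at 35.8 and 35.6 FPKM (23.8 FPKM on average with the GENCODE length), and Cyb5a, cytochrome b5, at 525 and 475 FPKM (135 FPKM on average with the GENCODE length). Of 13 genes of heme synthesis and breakdown 10 reached 10 FPKM, against 27.1% of all symbols. With the GENCODE lengths Ppox (7.06 FPKM) and Blvrb (7.28 FPKM) fell below 10 FPKM and Alad (19.3 FPKM) rose above it. Alas1, the rate-limiting enzyme of heme synthesis in liver, was at 25.3 and 27.0 FPKM (13.8 FPKM on average with the GENCODE length). Hmox1, which degrades heme and responds to stress, was at 526 and 599 FPKM. Alas2, the form of red cell precursors, had no count.

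Regulators of P450 genes ranged from well expressed to near 0. At 10 FPKM or more were 7 of 17 regulators, against 27.1% of all symbols, and 4 were below 1 FPKM, against 51.2%. With the GENCODE lengths Arnt (8.59 FPKM) and Rxrb (9.57 FPKM) fell below 10 FPKM. Hnf4a was at 50.1 and 50.6 FPKM, Cebpb at 58.6 and 60.1 FPKM and Foxa2 at 48.7 and 41.7 FPKM, all of them transcription factors of hepatocytes. Nr1i2, which encodes PXR, had 36 and 39 counts or 0.719 ± 0.0605 FPKM, and Nr1i3, which encodes CAR, had 1 and 3 counts. Cebpa had 31 and 82 counts, or 0.635 and 1.75 FPKM, on either side of 1 FPKM, and was higher in replicate 2 (log2 ratio 1.45, adjusted p of 1.61e-05, exact binomial test). Of 16 regulators tested, 2 passed as lower in replicate 2, Foxa2 among them (log2 ratio -0.22), and 3 as higher. Among all genes tested the shares were 6.38% and 8.38%. Ahr, the aryl hydrocarbon receptor, was at 5.99 ± 0.158 FPKM. Among 7 targets of that receptor outside the family, Gsta1 (54.2 ± 1.00 FPKM) and Tiparp (13.3 ± 1.54 FPKM) reached 10 FPKM and 3 were below 1 FPKM. By the same test 3 of these 7 passed as higher in replicate 2, Tiparp among them, and 0 as lower.

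**Figure D3:**
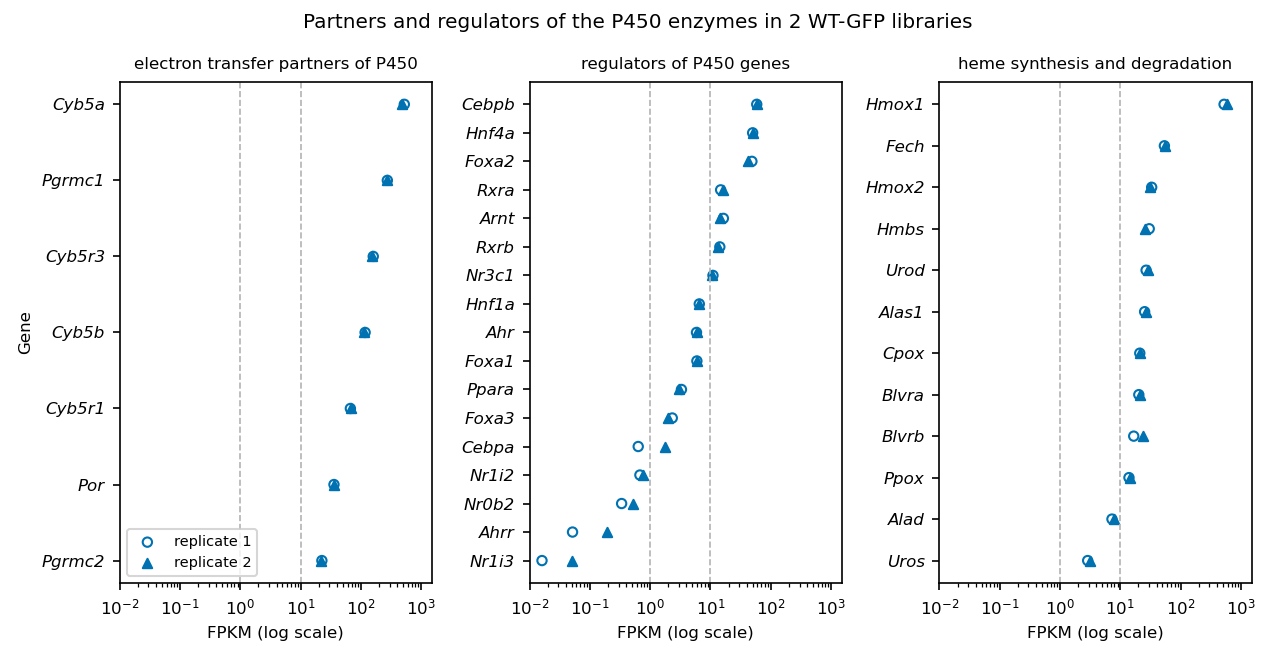
FPKM (log axis) of electron transfer partners, regulators and heme genes in WT-GFP replicate 1 (circles) and replicate 2 (triangles), without Alas2, which had no count. Dashed lines stand at 1 and 10 FPKM. The electron transfer genes all lie above 10 FPKM, while the receptor genes Nr1i2 and Nr1i3 lie below 1 FPKM.

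The libraries held transcripts of the hepatocyte list, the biliary and progenitor list and part of the mesothelial list. Of 10 hepatocyte markers 8 reached 10 FPKM, while Cps1 was at 1.21 FPKM and Tat at 0.878 FPKM. All 10 had a summed level of 3154 FPKM in replicate 1 and 2912 FPKM in replicate 2. Of 8 biliary and progenitor markers 6 reached 10 FPKM, while Epcam was at 2.04 FPKM and Prom1 at 1.56 FPKM. All 8 summed to 1686 and 1632 FPKM, mostly from Cd24a (649 FPKM), Spp1 (604 FPKM) and Krt19 (344 FPKM). Krt7 passed at 10.4 FPKM but came to 2.34 FPKM with the GENCODE length. The endothelial genes Cdh5, Stab2, Lyve1 and Clec4g and the macrophage genes Adgre1, Clec4f and Marco had no count. Of the other endothelial markers, Pecam1 had 13 and 21 counts, Kdr 44 and 39, and Tek 8 and 7. All 7 endothelial markers were below 1 FPKM (0.705 and 0.786 FPKM in sum), as were 6 of 7 stellate cell and fibroblast markers (1.41 and 1.45 FPKM), while Cd68 and Csf1r were the 2 of 6 macrophage markers above 1 FPKM (16.7 and 21.8 FPKM in sum). Of 5 mesothelial markers 3 reached 10 FPKM (1576 and 1492 FPKM for all 5 in sum). These were Msln (1159 FPKM, against 930 FPKM for Alb), Krt19, also a biliary marker, and Upk1b (28.1 FPKM). The other mesothelial markers were lower, with Upk3b at 3.06 FPKM and Wt1 at 0.266 FPKM. Of 3 club cell markers, Scgb1a1 had 1 and 2 counts and the others none, beside the Cyp4b1 level given above. The part of these cell types in the P450 levels was not tested.

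For a few highly expressed P450 genes the 2 libraries lay further apart than counting error. The counts were compared by a two-sided exact binomial test given the library totals, with Benjamini-Hochberg adjustment over the 12302 genes that averaged at least 10 counts. Of the 74 members 35 had enough counts to be tested, and 24 more had fewer counts and 15 none. Lower in replicate 2 were 3 of the 35 members and higher 0, against 6.38% and 8.38% of all genes tested, or 14.8% in either direction. With 1 library on each side the test takes counting error as its only noise, and its p-values hold no estimate of the spread between libraries.

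Cyp3a11 had 3745 counts in replicate 1, or 202 CPM (95% exact interval 196 to 209 CPM), and 2685 counts or 151 CPM (145 to 156 CPM) in replicate 2. The log2 ratio was -0.42, with an adjusted p of 5.36e-29 by the exact binomial test. Cyp2c29 had 1882 and 1416 counts and a log2 ratio of -0.35, with an adjusted p of 2.70e-10 by the exact test. Cyp2s1 had 1328 and 971 counts and a log2 ratio of -0.40, with an adjusted p of 5.43e-09 by the exact test. These intervals of Cyp3a11 do not overlap between the libraries. Cyp3a13 had 6305 and 5802 counts and a log2 ratio of -0.06, which did not pass (adjusted p of 0.0850, exact test). Cyp4b1 had 2408 and 2396 counts and a log2 ratio of 0.05, which did not pass either (adjusted p of 0.503, exact test). With TMM factors in place of the totals, Cyp2a5 and Cyp3a13 passed too (adjusted p = 0.0401 and 0.0274, exact binomial test).

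These 3 were among 5 members that averaged at least 1000 counts, a bound set after their values were seen, and 26.7% of all 4409 genes with that many counts passed the test. The log2 ratios of the 4409 genes had an SD of 0.113, against ratios of -0.42 for Cyp3a11, -0.35 for Cyp2c29 and -0.40 for Cyp2s1. This SD describes the spread over genes and was not used in a test. Of the 10 hepatocyte markers 7 passed as lower in replicate 2, and the median log2 ratio of the list was -0.10. Of the 8 biliary and progenitor markers 3 were lower and 2 higher. Among all genes tested 6.38% were lower and 8.38% higher. Small ratios pass at high counts, as for Apob at -0.03 with 50889 and 47943 counts. The part of these markers in the P450 differences was not tested. The test compares 2 libraries of 1 group and says nothing of genotype, vector or copper.

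**Figure D4:**
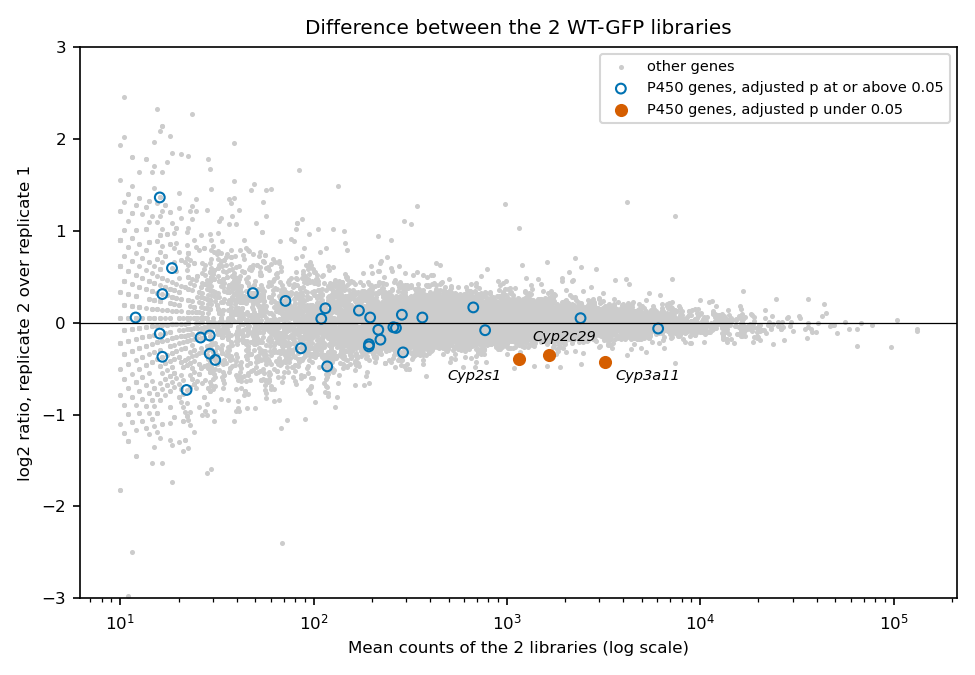
Log2 ratio of replicate 2 over replicate 1 against the mean counts (log axis) of the 12302 genes tested, with P450 genes in colour and 4 genes beyond a ratio of 3 in either direction not shown. Filled points are Cyp3a11, Cyp2c29 and Cyp2s1, which passed the exact binomial test, all 3 below the line at 0.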

How the data were processed

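Libraries were made with a stranded kit for mRNA, according to the labels' protocols. Raw counts for each symbol were deposited as 1 table with 9 numbered columns, and FPKM were deposited for 2 samples in separate files, per the file headers. HISAT2 2.2.1.0 and 2 builds, hg38 and mm10, appear without a role in the notes the submitters gave on processing. Which counter, annotation and strand setting were used is not given in the sources here. Of the 9 count columns 7 were not used.

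Gene lengths worked back from deposited counts and FPKM came out as whole bases, with a tolerance of 0.01 bp, for 100% of 15545 genes that had counts, so the FPKM follow from those counts. Positions, exon lengths and shared 50-base stretches came from GENCODE M21 on GRCm38, the assembly of mm10, in which all 74 members were found, Cyp2c44 under the name Cyp2c23. RefSeq promoters (GRCm38.p6) were found for 62 members, 57 of them with 1 start, and aligned with Biopython 1.88. Counts of the libraries were compared by an exact binomial test (scipy 1.17.1), which was tested on simulated data, with Benjamini-Hochberg adjustment at 0.05. TMM factors came from edgeR 4.0.16. The libraries differed beyond sampling noise, with a chi-square of 5.25 per degree of freedom, and count as 2 samples. Named genes were all members at 10 FPKM or more, the highest of each subfamily, those nearest 10 and 1 FPKM, called members with a log2 ratio of at least 0.5 in size, and liver-abundant members, beside others chosen after their values were seen. Members and lists were chosen with earlier results of these data known.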

Additional observations from a re-analysis of the deposited data

How the results depend on the processing

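The count of members at 10 FPKM or more was 8 with the deposited FPKM, 7 with GENCODE exon lengths and 8 to 9 when either library was left out, but 17 when counts were turned into TPM (length-scaled counts brought to the same sum in each library), under which 40.0% of all symbols reached 10. The FPKM of all symbols summed to 387118 in replicate 1 and 383757 in replicate 2, below the sum of 1000000 that TPM sets. Members below 1 FPKM numbered 51 with the deposited FPKM and with GENCODE lengths, 42 in TPM, 50 to 51 without either library, and 12 when only members with a mean of at least 10 counts were kept, which leaves 35 genes. The share of counts was 0.107% ± 0.00767 (SD, n = 2), 0.101 to 0.112% without either library and 0.118% with the 6 family 1 to 4 symbols of other form, mostly from Cyp4a12a. Of 23 members at 1 FPKM or more, 15 moved by more than 1 SD with GENCODE lengths, and of the same 23 members 16 were lower and 7 higher than with the deposited lengths. Members that passed the exact binomial test numbered 3 as reported (14.8% of all genes tested), 5 with TMM factors (14.6% of all), 3 without a filter (10.8% of all), 4 with a mean of at least 50 counts (16.6% of all; Cyp2a5 added, adjusted p = 0.0477, exact binomial test), and 0 at a log2 ratio of at least 0.5, where 188 of all 12302 genes passed. No paired analysis was possible because the 2 libraries used belong to 1 group, WT-GFP, and no other group could be set against it.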
